A study of Mus musculus with 12 samples.

Results

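The lysosomal cathepsin genes Ctsa, Ctsb, Ctsc, Ctsd, Ctsh, Ctsl, Ctss and Ctsz and the cystatin C gene Cst3 were followed by name in RNA sequencing of mouse bone marrow-derived macrophages (BMDMs). These 9 genes are 9 of the 35275 gene IDs counted, and all 9 were among the 12849 genes that passed the filter on low counts, with at least 932 counts in each library. Bone marrow cells of wildtype mice were grown for 6 days with IL4, IL10 and MCSF, which all 3 groups received, together with DMSO as the vehicle, with olaparib, an inhibitor of poly(ADP-ribose) polymerases, or with MNA, the NAD derivative methyl-nicotinamide. Each group had 4 libraries, and the study's legend for its sequencing names 4 donor mice without tying a donor to a library. Strain, age and sex of these donors were not used here, and each library is a whole culture in which all cells contribute RNA. The comparisons asked how olaparib and MNA each changed expression against DMSO, and whether the 2 treatments differed from each other.

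Cathepsins are proteases that are made as inactive precursors, carried to endosomes and lysosomes mostly by mannose 6-phosphate receptors, and activated there at acidic pH. Cathepsins B, C, H, L, S and Z are cysteine proteases of the papain family, cathepsin D is an aspartic protease, and cathepsin A is a serine carboxypeptidase that also protects the lysosomal sialidase Neu1 and the beta-galactosidase Glb1. Cystatin C is a secreted inhibitor of the cysteine cathepsins. In macrophages these enzymes break down engulfed protein, and cathepsins S and L cut the invariant chain that occupies MHC class II molecules.

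Libraries held 21146291 to 31446849 counts, and levels are given as counts per 1000000 (CPM) of the library after TMM scaling. The library labelled MNA replicate 2 stood apart from its group. Over all tested genes its root mean square distance in log2 CPM was 0.288 to the mean of the DMSO libraries and 0.892 to the mean of the other 3 MNA libraries. Among the 9 genes it lay inside the DMSO range for 4 and inside the range of the other MNA libraries for 1 (Cst3). Leaving it out lowered the common dispersion, an edgeR estimate of the spread over all tested genes, from 0.0333 to 0.0123. The spread of each gene was estimated over the 3 groups together, so the olaparib contrast also changed although it holds no MNA library. In that contrast the standard error (SE) fell from 0.587 to 0.160 for Ctsl and from 0.0789 to 0.0702 for Cst3. MNA replicate 2 is therefore shown apart, and results of the 9 genes are given with and without it. For the related protease, inhibitor, sorting and transcription factor genes the calls against DMSO that changed without it are given. All 10 macrophage markers had over 3 counts in each group, and their summed level was 4416 to 5509 CPM in DMSO, 8993 to 10743 CPM in olaparib, 5993 to 7861 CPM in MNA replicates 1, 3 and 4 and 4109 CPM in MNA replicate 2. The summed level of 10 neutrophil markers was 6.22 to 20.5 CPM in DMSO, 58.5 to 72.7 CPM in olaparib and 22.6 to 83.4 CPM in MNA replicates 1, 3 and 4, with the defining marker Ly6g at 0 in every library but MNA replicate 4. In olaparib nearly all of that sum was Mmp8 (55.1 to 69.6 CPM), and S100a9 was at most 0.0786 CPM. MNA replicate 4 held the highest sum, with S100a9 at 20.8 CPM and Ngp at 15.04 CPM, and also the highest erythroid sum, 54.9 CPM with Hba-a1 at 48.3 CPM, against 0.0952 to 4.03 CPM in DMSO and 0.105 to 0.337 CPM in olaparib. The summed level of 8 lymphocyte markers was 2.77 to 5.03, 11.3 to 18.8 and 3.78 to 5.6 CPM in the same order, most of it Klrb1c in DMSO and olaparib. Of the 4 tested lymphocyte markers 3 were called higher in MNA (Cd79a, Ms4a1 and Cd3e, each under 1.6 CPM) and Klrb1c lower. Of all tested genes 16.3% were called higher and 12.3% lower in MNA against DMSO. Eosinophil markers summed to 3.85 to 6.95, 31.1 to 58.5 and 7.04 to 9.99 CPM, with Prg2 at 0 in every DMSO and olaparib library. Siglecf (30.5 to 58.2 CPM, called higher) made up nearly all of the olaparib sum. Dendritic cell markers summed to 17.8 to 21.3, 18.3 to 22.9 and 19.0 to 26.8 CPM. Among them Ccr7 was called higher in olaparib and in MNA, and Xcr1 lower in olaparib, where 14.3% and 12.8% of all tested genes were called higher and lower. Ccr7 read 0.0335 to 0.381, 0.707 to 2.02 and 5.59 to 10.6 CPM in the same order. The part of these cells in the results below was not tested.

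Promoter windows from the RefSeq table of build GRCm38.p6 matched 7 of the 9 genes, all but Ctsb and Ctsh, in 8 windows of 300 bases. They were searched on both strands for CACGTG, the palindrome bound by the MiT factors Tfeb and Tfe3 and by other helix-loop-helix factors, for its longer form TCACGTGA, for GAGGAAGT, a site for the myeloid factor PU.1, and for AANNGAAA, the core site of interferon regulatory factors. CACGTG was found in the windows of Ctsa, Ctsd and Ctsl and in 7.15% of all 32851 windows of the table. TCACGTGA, which contains CACGTG, was found in Ctsa and Ctsd and in 0.974% of all windows. GAGGAAGT was found in Ctsc and Ctss and in 3.2% of all windows, and AANNGAAA in Ctss, Ctsl and Cst3 and in 23.9%. The stretches below show CACGTG, and for Ctss AANNGAAA, in capitals for the genes whose levels are contrasted later, Ctsl, Ctsd, Ctsa and Ctss. A match is a run of letters and not a measured binding site. Distances are from the RefSeq start site of the window. Ctsa had windows at the start sites chr2:164832872 and chr2:164833773, and its CACGTG matches lie in the window of the latter. The stretches of Ctsl at 236 bases, of Ctsd at 98 bases and of Ctsa overlap exons annotated in GENCODE vM21, where transcripts of these genes start at several places.
Ctsl, 236 bases before the start, chr13:64370741-64370766, minus strand: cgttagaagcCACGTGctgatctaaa
Ctsd, 245 bases before the start, chr7:142388057-142388077, minus strand: tccccCACGTGacctgtatcc
Ctsd, 98 bases before the start, chr7:142387910-142387935, minus strand: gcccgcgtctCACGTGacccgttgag
Ctsa, 12 bases before the start, chr2:164833751-164833776, plus strand: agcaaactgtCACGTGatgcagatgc
Ctsa, 6 bases after the start, chr2:164833768-164833793, plus strand: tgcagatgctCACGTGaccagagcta
Ctss, the 120 bases before the start, chr3:95526666-95526785, plus strand: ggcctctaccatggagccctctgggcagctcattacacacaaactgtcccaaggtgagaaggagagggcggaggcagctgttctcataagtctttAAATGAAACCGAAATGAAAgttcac

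The 9 genes together took 4.41 ± 0.298% of all counts in DMSO (SD, n = 4), 4.14 ± 0.347% in olaparib (n = 4) and 3.49 ± 0.0981% in MNA replicates 1, 3 and 4, against 4.21% in MNA replicate 2. Levels between genes were compared per kilobase of the principal transcript. In DMSO the order of mean levels was Ctss (4558 CPM per kilobase), Ctsd (4448), Ctsb (3722), Ctsl (3094.5), Ctsz (1657), Cst3 (1261), Ctsa (338), Ctsc (30.2) and Ctsh (25.6). The library ranges of Ctss and Ctsd, of Ctsd and Ctsb, of Ctsb and Ctsl and of Ctsc and Ctsh overlapped, and the other neighbours in that order did not. In olaparib Ctsl stood below Ctsz with overlapping ranges (1591 and 1760.0 CPM per kilobase), and Ctsh stood above Ctsc without overlap (47.2 and 37.1). In MNA replicates 1, 3 and 4 Ctsl stood below Cst3 (406 and 1238 CPM per kilobase), next to Ctsa (350.0). The place of Ctsl depends on the length used, since per kilobase of all its merged exons it stood at 940 against 1657 for Ctsz in DMSO already.

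**Figure D1:**
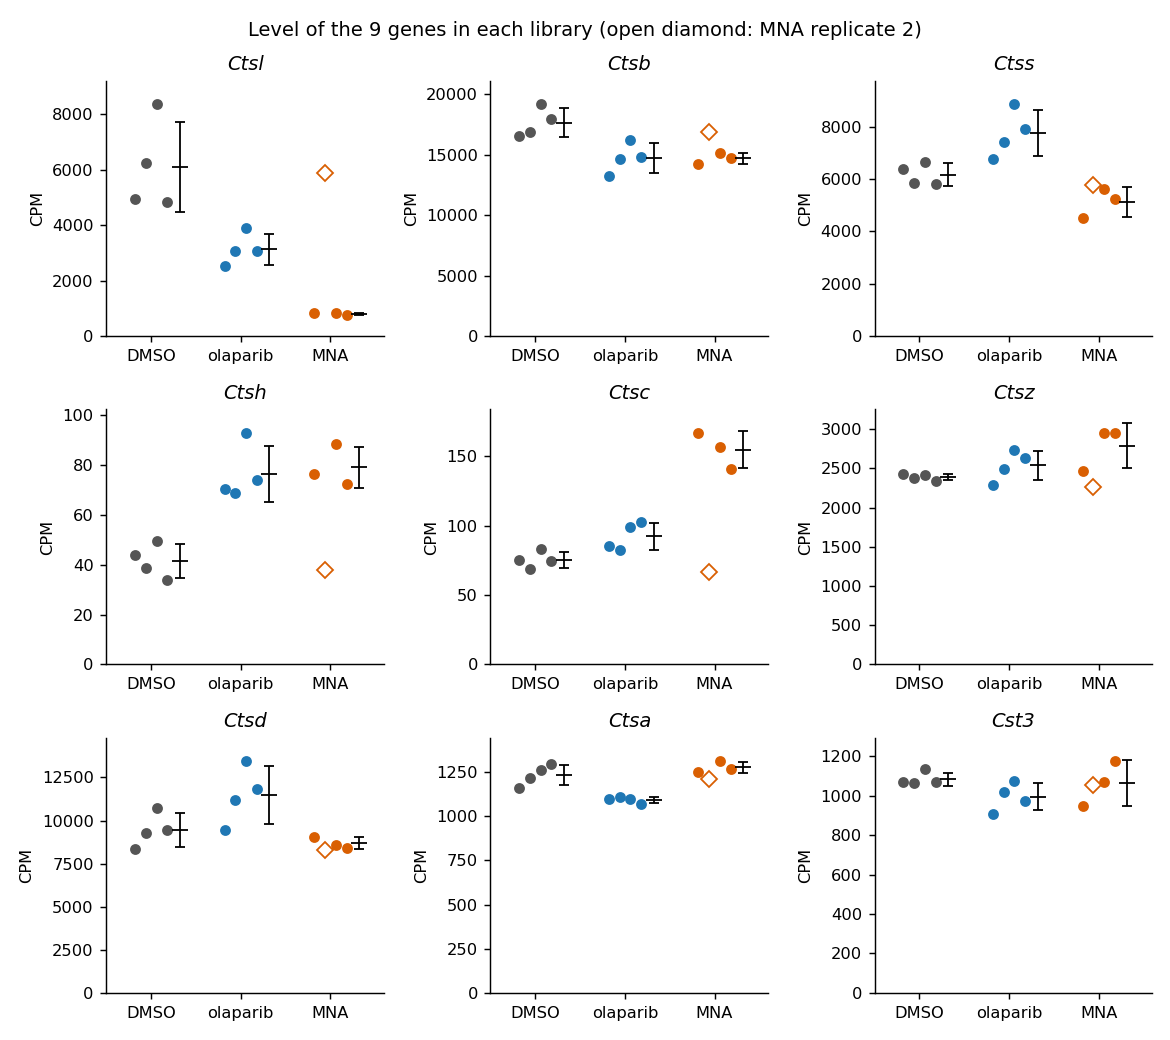
Level of each of the 9 genes in CPM (vertical axes, starting at 0) in every library, by group. Filled points are libraries, the open diamond is MNA replicate 2, and the bar beside each group is the mean with SD of its libraries without that one. Ctsl reads 746 to 827 CPM in 3 MNA libraries and 5882.5 CPM in MNA replicate 2, inside the DMSO range of 4849.5 to 8365 CPM.

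Against DMSO, olaparib-treated BMDMs had more Ctsh and Ctss mRNA. Of the 9 genes 2 were called higher (Ctsh and Ctss), where 14.3% of all tested genes were, and 0 were called lower, where 12.8% were, at an adjusted p under 0.05 in edgeR with all 12 libraries. At an unadjusted p under 0.05 edgeR had 3 higher and 2 lower, and DESeq2 called 3 higher (16.8% of all tested genes) and 2 lower (15.2%). With olaparib and DMSO libraries fitted alone, edgeR called 3 higher (Ctsc, Ctsh and Ctss; 22.9%) and 3 lower (Ctsa, Ctsb and Ctsl; 22.5%). Without MNA replicate 2, 4 genes were called higher (Ctsc, Ctsd, Ctsh and Ctss; 22.5% of all tested genes) and 3 lower (Ctsa, Ctsb and Ctsl; 21.2%). The libraries of olaparib and DMSO did not overlap for 5 of the 9 genes, where they did not for 41.0% of all tested genes (40.7% of those tested without MNA replicate 2). The median log2 fold change of the 9 genes was 0.09, against 0.0038 over all tested genes.

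Against DMSO, MNA-treated BMDMs had more Ctsc and Ctsh mRNA, and without MNA replicate 2 less Ctsl, Ctsb and Ctss mRNA. With all libraries 2 genes were called higher (Ctsc and Ctsh; 16.3% of all tested genes) and 0 lower (12.3%). At an unadjusted p under 0.05 edgeR had 1 lower (Ctsl), and DESeq2, which gave no adjusted p for Ctsl, called 2 higher (18.9% of all tested genes) and 1 lower (Ctsb; 15.7%). With MNA and DMSO libraries fitted alone, edgeR called 0 of the 9 genes and 0.0% of all tested genes, and the 2 calls of Ctsc and Ctsh had adjusted p-values of 0.0687 and 0.0762. When MNA replicate 2 was left out of the fit of 3 groups, 3 genes were called higher (Ctsc, Ctsh and Ctsz; 27.2% of all tested genes) and 3 lower (Ctsb, Ctsl and Ctss; 26.9%). Libraries did not overlap for 1 of the 9 genes with all libraries (12.4% of all tested genes) and for 6 without MNA replicate 2 (54.2%). The median log2 fold change was -0.03 for the 9 genes with and without that library, against 0.0002 and -0.0015 over all tested genes.

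The 2 treatments were also compared directly. Olaparib libraries had more Ctsd and Ctss and less Ctsa mRNA than MNA libraries, which is 2 genes higher (10.9% of all tested genes) and 1 lower (10.9%). DESeq2 called 2 higher (12.7%) and 1 lower (13.4%). With these 2 groups fitted alone Ctss was called higher (7.64% of all tested genes were) and 0 of the 9 genes lower (6.73%), where 1 had an unadjusted p under 0.05. In the fit without MNA replicate 2 Ctsl was also higher in olaparib and Ctsc lower, which is 3 higher (21.5%) and 2 lower (20.7%). Libraries did not overlap for 3 genes (21.2% of all tested genes), and for 5 without that library (46.2%). The median of the 9 genes was -0.05 in both fits, against -0.013 and 0.0025 over all tested genes. The 2 contrasts with DMSO share the 4 DMSO libraries, so their values are set side by side here and not correlated.

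**Figure D2:**
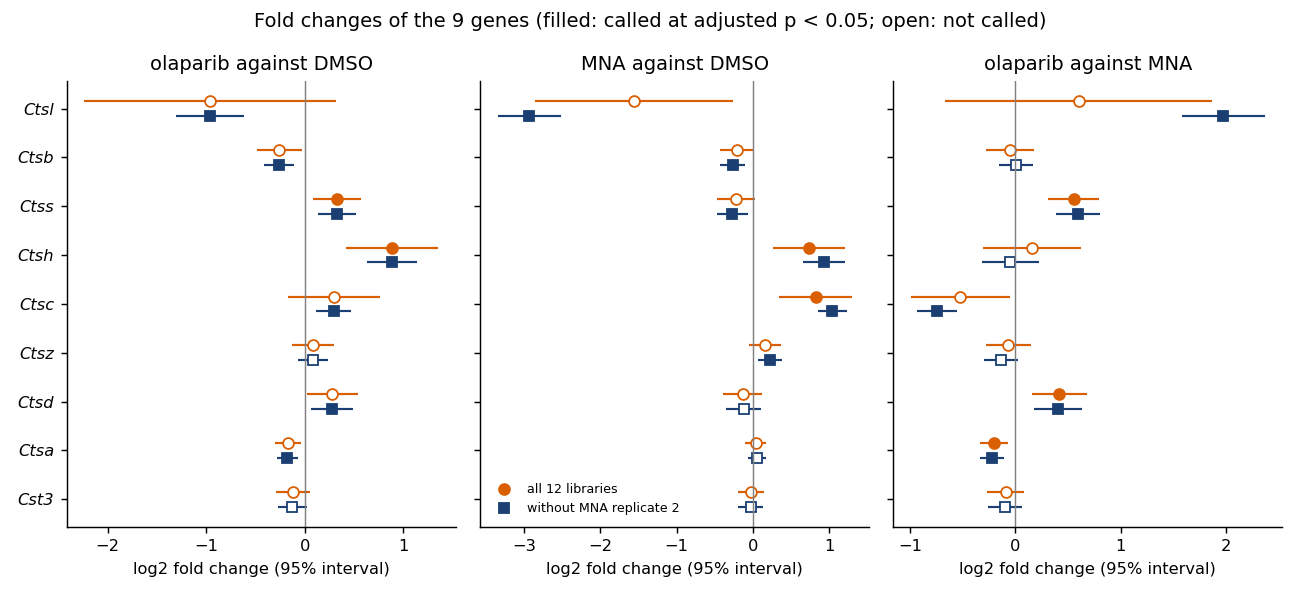
Log2 fold changes of the 9 genes (horizontal axes) with 95% intervals in the 3 contrasts. Circles are fits of all 12 libraries and squares fits without MNA replicate 2, filled where the adjusted p was under 0.05. For Ctsl the interval of MNA against DMSO runs from -2.85 to -0.26 with all libraries and from -3.35 to -2.52 without that library.

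Ctsl encodes cathepsin L, an endopeptidase with broad activity in the lysosome. Its level was 4933, 6249, 8365 and 4849.5 CPM in the 4 DMSO libraries in replicate order, 2519, 3065, 3882 and 3075 CPM in olaparib, 826, 827 and 746 CPM in MNA replicates 1, 3 and 4, and 5882.5 CPM in MNA replicate 2. Every olaparib library was below every DMSO library, and the 3 MNA libraries were below every olaparib library, while MNA replicate 2 lay among the DMSO libraries. Without a replicate block and with all 12 libraries in 1 fit Ctsl was called in no contrast. The log2 fold change was -0.96 ± 0.59 (SE) for olaparib against DMSO (adjusted p = 0.237), -1.56 ± 0.59 for MNA against DMSO (adjusted p = 0.0644) and 0.60 ± 0.58 for olaparib against MNA (adjusted p = 0.502). With the replicate number as a block it was called lower in MNA than in DMSO with all libraries (log2 -2.05, adjusted p = 0.0236). With all libraries, however, these numbers were not taken as pairs for MNA and DMSO. The deviations of replicate 3 over all tested genes had r = -0.0094 there, so that call adds no support. With olaparib and DMSO libraries fitted alone Ctsl was called lower in olaparib (log2 -0.96, adjusted p = 0.000914). Without MNA replicate 2 it fell by 0.96 ± 0.16 on the log2 scale in olaparib, 1.95-fold (adjusted p = 0.000322), and by 2.93 ± 0.19 in MNA, 7.64-fold (adjusted p = 3.75e-08). It was then 3.92-fold higher in olaparib than in MNA (log2 1.97 ± 0.18, adjusted p = 1.95e-06). In such bulk cultures fewer cells that express a gene and less of its RNA per cell cannot be told apart. Antisense exons of Gm47123 cover 26.9% of the merged exons of Ctsl, and exons of Gm49230 on the same strand 6.09%. Antisense exons also cover 17.4% of the merged exons of Ctsa (Neurl2 and Pltp) and 12.8% of those of Ctsb (Fdft1). Which strand column of the aligner was deposited was not given in the sources used here.

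Ctsb, the gene of cathepsin B, is the member with the most counts per library. It read 16593, 16848, 19188 and 17987 CPM in DMSO, 13245, 14641, 16249 and 14811 CPM in olaparib, 14225, 15167 and 14699 CPM in MNA replicates 1, 3 and 4 and 16874 CPM in MNA replicate 2. All olaparib libraries and those 3 MNA libraries lay below all DMSO libraries. The log2 fold change with all libraries was -0.26 ± 0.10 in olaparib (adjusted p = 0.0818) and -0.21 ± 0.10 in MNA (adjusted p = 0.134). In the fit without MNA replicate 2 both were -0.26 to -0.27 and were called (adjusted p = 0.00766 and 0.00856), and the difference between olaparib and MNA was 0.0041 with a 95% interval of -0.16 to 0.17.

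Ctss encodes cathepsin S, which stays active at neutral pH and cuts the invariant chain in antigen-presenting cells. Its level was 6397, 5834, 6672 and 5801 CPM in DMSO, 6782, 7436, 8867.5 and 7921 CPM in olaparib, 4503, 5639 and 5241 CPM in MNA replicates 1, 3 and 4 and 5772 CPM in MNA replicate 2. The 3 groups did not overlap for this gene, with MNA lowest and olaparib highest, and here MNA replicate 2 was also below every DMSO library. Ctss rose by 0.33 ± 0.11 on the log2 scale in olaparib (1.26-fold, adjusted p = 0.0471), a call kept in 4 of the 12 fits that each left out 1 library and lost without any of DMSO replicates 1 to 4, olaparib replicates 2 to 4 or MNA replicate 4. It was 1.47-fold higher in olaparib than in MNA (log2 0.55 ± 0.11, adjusted p = 0.00518), a call kept in all 12 of those fits. In MNA against DMSO it was -0.22 ± 0.11 with all libraries (adjusted p = 0.138) and called lower without MNA replicate 2 (-0.27 ± 0.10, adjusted p = 0.0293). Its promoter holds 3 overlapping AANNGAAA matches at 25, 19 and 14 bases before the start, which are the capitals of the stretch printed above.

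Ctsh and Ctsc are the members with the lowest levels, and both were called higher in MNA. Cathepsin H is an aminopeptidase. Ctsh read 43.7, 38.6, 49.6 and 33.7 CPM in DMSO, 70.4, 68.6, 92.8 and 73.8 CPM in olaparib, 76.5, 88.1 and 72.4 CPM in MNA replicates 1, 3 and 4 and 37.8 CPM in MNA replicate 2. Apart from that last library, every treated library was above every DMSO library. Ctsh rose 1.85-fold in olaparib (log2 0.88 ± 0.22, adjusted p = 0.0122), a call kept in all 12 fits that left out 1 library. In MNA it rose 1.66-fold (log2 0.73 ± 0.22, adjusted p = 0.0297) and, without MNA replicate 2, 1.91-fold (log2 0.93 ± 0.13, adjusted p = 3.24e-05). The MNA call was lost without any 1 of the 4 DMSO libraries or of MNA replicates 1, 3 and 4 (highest adjusted p = 0.0935). Olaparib and MNA differed by 0.15 with a 95% interval of -0.31 to 0.62, and by -0.05 (-0.32 to 0.22) without MNA replicate 2.

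Cathepsin C, the dipeptidyl peptidase that activates granule serine proteases such as the granzymes, is encoded by Ctsc. Its level was 75.0, 68.8, 82.9 and 74.4 CPM in DMSO, 85.1, 82.9, 99.03 and 102.5 CPM in olaparib, 167.1, 156.5 and 140.6 CPM in MNA replicates 1, 3 and 4 and 66.4 CPM in MNA replicate 2. The 3 MNA libraries stood above all others, MNA replicate 2 was the lowest of the 12, and the lowest olaparib library (82.87 CPM) was level with the highest DMSO library (82.89 CPM). In MNA Ctsc rose 1.76-fold (log2 0.82 ± 0.22, adjusted p = 0.0224), and 2.05-fold without MNA replicate 2 (log2 1.04 ± 0.09, adjusted p = 3.95e-07). With all libraries the call was lost without any 1 of DMSO replicates 2 and 4 and MNA replicates 1, 3 and 4 (highest adjusted p = 0.0708). For olaparib the log2 fold change was 0.30 ± 0.22 (adjusted p = 0.326) and 0.29 ± 0.08 without MNA replicate 2 (called, adjusted p = 0.0109). In that fit olaparib stood 1.68-fold below MNA (log2 -0.74 ± 0.09, adjusted p = 1.63e-05). The neutrophil marker sums given above were also higher in these 3 MNA libraries than in DMSO. In replicate order Mmp8 read 17.4, 16.4 and 14.5 CPM in them, against 4.67 to 9.75 CPM in DMSO. S100a8 read 1.11, 1.54 and 13.2 CPM, against 1.11 to 2.77 CPM in DMSO. The part of neutrophils in the Ctsc values was not tested.

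Ctsz, the gene of the carboxypeptidase cathepsin Z, differed little between groups. It read 2427, 2375, 2417 and 2333 CPM in DMSO, 2289, 2497, 2728 and 2631 CPM in olaparib, 2461, 2949.8 and 2954 CPM in MNA replicates 1, 3 and 4 and 2265 CPM in MNA replicate 2. The olaparib libraries spanned the DMSO range, and 2 of the MNA libraries stood above all others. It was called in no contrast with all libraries (log2 0.09 ± 0.10 for olaparib, adjusted p = 0.53; 0.15 ± 0.10 for MNA, adjusted p = 0.238). It was called higher in MNA without MNA replicate 2, by 0.22 ± 0.08 on the log2 scale or 1.17-fold (adjusted p = 0.0228).

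Ctsd encodes the aspartic protease cathepsin D. Its level was 8341.5, 9286, 10747.5 and 9466 CPM in DMSO, 9434, 11179, 13447 and 11854 CPM in olaparib, 9056, 8594 and 8413 CPM in MNA replicates 1, 3 and 4 and 8315 CPM in MNA replicate 2. Olaparib and MNA did not overlap, and the DMSO libraries lay across both. Ctsd was 1.34-fold higher in olaparib than in MNA (log2 0.42 ± 0.12, adjusted p = 0.0271), a call lost without any 1 of olaparib replicates 3 and 4 and MNA replicates 3 and 4 (highest adjusted p = 0.0675). Against DMSO the log2 fold change of olaparib was 0.28 ± 0.12 (adjusted p = 0.0989) and reached the threshold without MNA replicate 2 (0.28 ± 0.10, adjusted p = 0.0343), and that of MNA was -0.14 ± 0.12 (adjusted p = 0.383). Exons of Gm49369 on the same strand cover 34.4% of the merged exons of Ctsd, and how reads of the shared part were assigned was not given in the sources used here.

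Ctsa, the gene of cathepsin A, read 1162, 1215, 1261 and 1293 CPM in DMSO, 1094, 1108, 1097 and 1067 CPM in olaparib, 1250.3, 1311 and 1267 CPM in MNA replicates 1, 3 and 4 and 1212 CPM in MNA replicate 2. The 4 olaparib libraries were the lowest of the 12. Ctsa was lower in olaparib than in MNA by 0.21 ± 0.06 on the log2 scale, or 1.15-fold (adjusted p = 0.0305), a call lost without any 1 of the 4 olaparib libraries or of MNA replicates 3 and 4 (highest adjusted p = 0.067). Against DMSO olaparib gave -0.18 ± 0.06 (adjusted p = 0.0505), and -0.18 ± 0.05 without MNA replicate 2 (called, adjusted p = 0.0102). MNA gave 0.03 ± 0.06 with a 95% interval of -0.10 to 0.16. Ctsa and Ctsd both carry TCACGTGA in the windows above, and the part of that sequence in their levels was not tested.

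The inhibitor gene Cst3 read 1071, 1064, 1134 and 1071 CPM in DMSO, 910.1, 1021.5, 1074 and 975.5 CPM in olaparib, 947, 1071 and 1176 CPM in MNA replicates 1, 3 and 4 and 1054 CPM in MNA replicate 2. All groups overlapped. It was called in no contrast, with or without MNA replicate 2. The log2 fold change was -0.12 for olaparib (95% interval -0.30 to 0.05) and -0.03 for MNA (-0.20 to 0.14).

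Olaparib minus DMSO differences of log2 CPM between libraries of the same number had 1 sign in all 4 pairs for 8 of the 9 genes, and for 59.2% of all tested genes. Among the 9 genes these were positive for Ctsc, Ctsd, Ctsh and Ctss and negative for Ctsa, Ctsb, Ctsl and Cst3. Those of Ctsl were -0.97, -1.03, -1.11 and -0.66, and those of Ctsh 0.69, 0.83, 0.90 and 1.13. Replicate 3 held the highest library of its group for 7 of the 9 genes in DMSO and for 7 in olaparib.

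The make-up of the cathepsin mRNA pool followed from these levels. Per kilobase of principal transcript, Ctsl made up 17.1 ± 2.98% of the summed level of the 8 cathepsin genes in DMSO, 8.81 ± 0.575% in olaparib and 2.95 ± 0.222% in MNA replicates 1, 3 and 4, against 17.9% in MNA replicate 2. Ctss made up 25.6 ± 1.83%, 31.9 ± 0.402% and 27.4 ± 1.95%, and Ctsd 24.9 ± 1.1%, 30.0 ± 0.925% and 29.7 ± 2.28%. The Ctsb share was lower in olaparib, at 17.4 ± 0.607%, than in DMSO (20.9 ± 1.04%) or the 3 MNA libraries (22.5 ± 0.249%). Ctsz made up 9.32 ± 0.775% in DMSO and 14.03 ± 0.967% in the 3 MNA libraries. The summed level itself was 17874 ± 1680 CPM per kilobase in DMSO, 17959 ± 2099 in olaparib and 13769 ± 590.0 in the 3 MNA libraries. On this scale the pool was thus of about the same size in olaparib and DMSO, with shares that moved between its members. Its size and shares depend on the length used. Ctsl in DMSO read 3094.5 CPM per kilobase of principal transcript and 940 per kilobase of merged exons. Without length scaling the 8 cathepsin genes took 4.30 ± 0.298% of all counts in DMSO, 4.04 ± 0.344% in olaparib and 3.39 ± 0.0908% in the 3 MNA libraries.

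**Figure D3:**
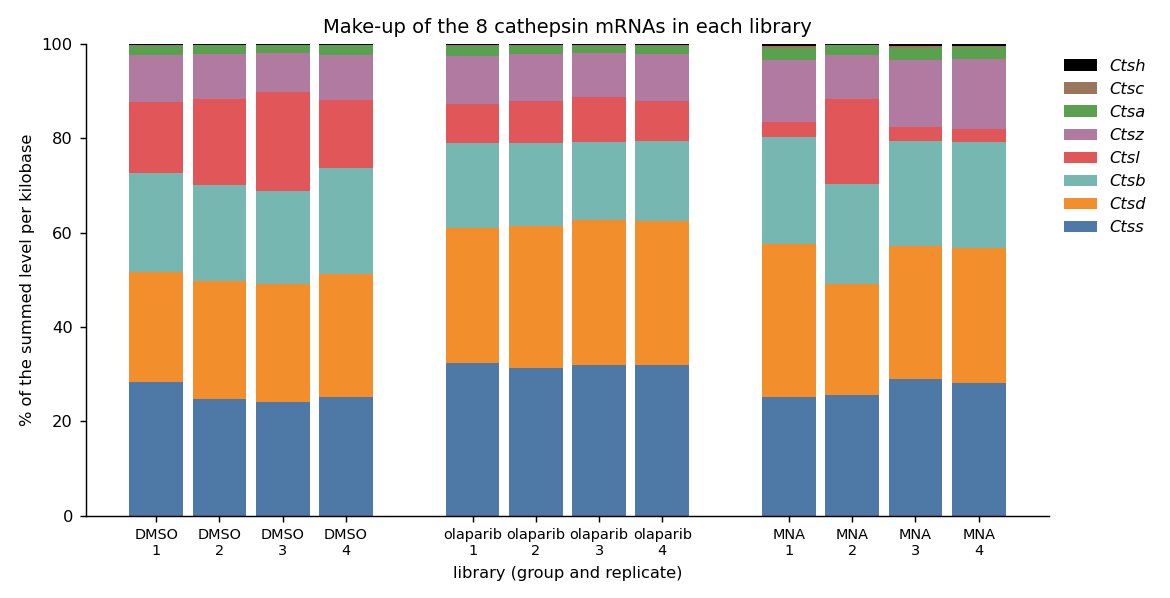
Share of each of the 8 cathepsin genes in their summed level per kilobase of principal transcript (vertical axis, percent) in each library (horizontal axis). The Ctsl share is 14.5 to 20.9% in DMSO, 8.26 to 9.58% in olaparib and 2.74 to 3.18% in MNA replicates 1, 3 and 4, and 17.9% in MNA replicate 2.

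Of 15 other cathepsin genes, 5 were expressed above the filter. Of these 2 were called higher and 1 lower in olaparib, where 14.3% and 12.8% of all tested genes were. In MNA 1 was called higher and 2 lower, where 16.3% and 12.3% were. The medians were 0.97 in olaparib and -0.13 in MNA on the log2 scale. Ctsk encodes cathepsin K, the main collagenase of osteoclasts. Like Ctsl it was lower in every olaparib library than in DMSO and lowest in MNA replicates 1, 3 and 4. It read 267 to 381 CPM in DMSO, 148 to 233 CPM in olaparib and 9.58 to 17.3 CPM in those MNA libraries. Unlike Ctsl, its level in MNA replicate 2 (187 CPM) was below every DMSO library and inside the olaparib range. In MNA it fell by 2.55 ± 0.80 on the log2 scale (adjusted p = 0.0357, a call lost with MNA and DMSO libraries fitted alone), and by 4.71 ± 0.23 or 26.2-fold without MNA replicate 2 (adjusted p = 3.2e-09). In olaparib it fell by 0.88 ± 0.17 in the fit without that library (adjusted p = 0.000967), and with all libraries was not called (adjusted p = 0.406). Ctse, an aspartic protease of endosomes, rose 1.96-fold in olaparib (27.9 to 37.1 CPM in DMSO, 47.7 to 72.7 CPM in olaparib, adjusted p = 0.000393), and the cysteine protease gene Ctsf rose 2.10-fold (8.39 to 10.1 and 14.8 to 23.3 CPM, adjusted p = 0.000462). In MNA the values of both were within 0.16 of DMSO on the log2 scale and not called. Ctso, another cysteine cathepsin gene, fell in olaparib (-0.54 ± 0.14, adjusted p = 0.0147) and in MNA (-0.41 ± 0.14, adjusted p = 0.0453, and -0.59 ± 0.08 without MNA replicate 2). Ctsw, a cathepsin gene of cytotoxic lymphocytes, was near the floor in DMSO (1 to 11 counts) and at 54 to 67 counts in MNA replicates 1, 3 and 4 (called higher, adjusted p = 0.0194). Apart from Ctsk in olaparib, leaving out MNA replicate 2 changed no call of these 5 genes against DMSO. With MNA and DMSO libraries fitted alone edgeR called 0 of 12379 genes. The other calls in MNA against DMSO with all libraries, of these genes and of the genes below, were thus lost there too.

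Of 21 other cystatin and stefin genes 17 were in the files and 2 passed the filter. Cst7 encodes cystatin F, an inhibitor that reaches endosomes and lysosomes. It rose 4.6-fold in olaparib, from 3.18 to 5.86 CPM in DMSO to 17.1 to 24.4 CPM (log2 2.20 ± 0.18, adjusted p = 2.51e-05), and stayed at 3.54 to 4.36 CPM in MNA. The difference between olaparib and MNA was called as well (log2 2.26 ± 0.18, adjusted p = 1.6e-05). Cstb, the gene of the cytosolic inhibitor stefin B, read 444 to 459 CPM in DMSO and 269 to 415 CPM in MNA, where it was called lower (-0.32 ± 0.11, adjusted p = 0.0485, and -0.39 ± 0.10 without MNA replicate 2). The calls of both genes in the 3 contrasts stood without that library, while the call of Cstb in MNA was lost with MNA and DMSO libraries fitted alone.

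**Figure D4:**
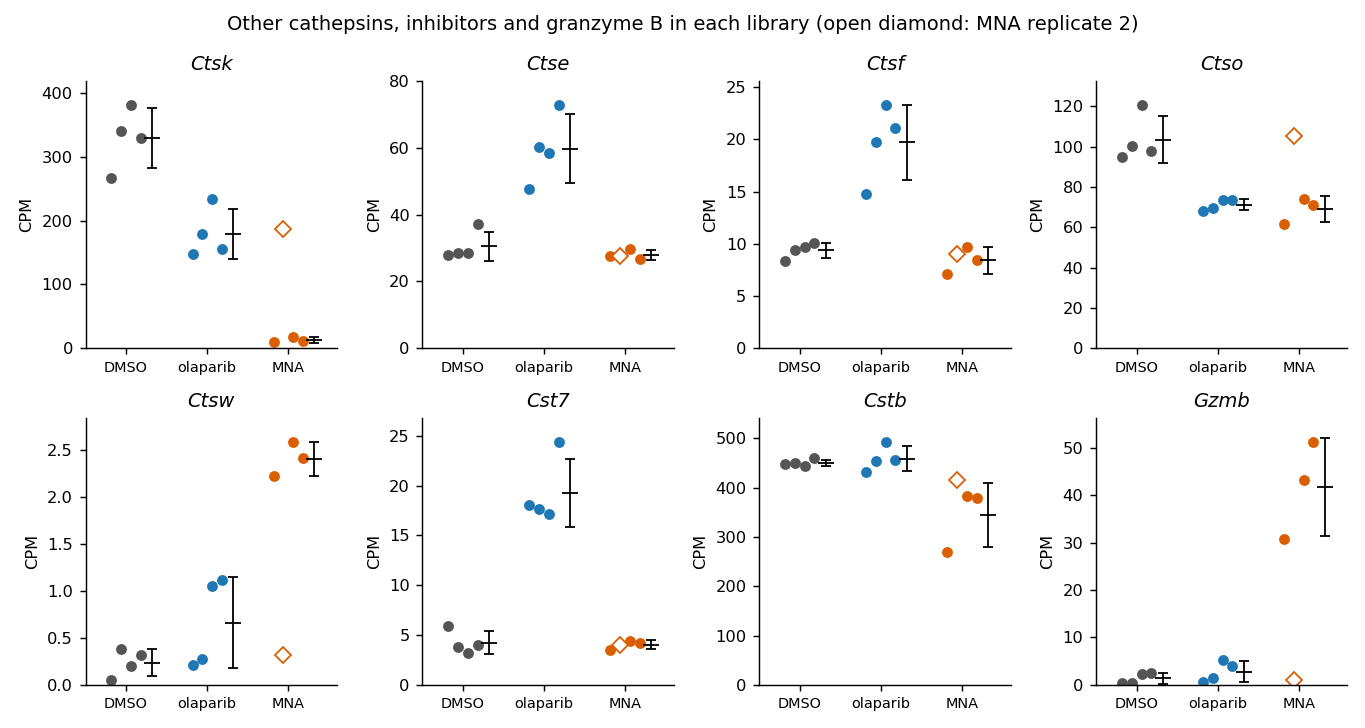
Levels in CPM (vertical axes, starting at 0) of 5 other cathepsin genes, the inhibitors Cst7 and Cstb and granzyme B (Gzmb) in every library, drawn as for the 9 genes. Ctsk reads 9.58 to 17.3 CPM in MNA replicates 1, 3 and 4 and 187 CPM in MNA replicate 2, and Cst7 reads 17.1 to 24.4 CPM in olaparib and under 6 CPM elsewhere.

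Of the genes that process and sort cathepsins, 1 of 16 was called in olaparib and 3 of 16 in MNA, where 27.0% and 28.6% of all tested genes were, and the medians of this list were -0.08 in olaparib and -0.02 in MNA. The gene called higher in olaparib was Sort1, whose product sortilin carries hydrolases to lysosomes (1.70-fold, 110.0 to 141 CPM in DMSO and 183 to 242 CPM in olaparib, adjusted p = 0.000914). In MNA 1 was called higher, Gnptab, which encodes the enzyme that starts the mannose 6-phosphate tag (1.48-fold, adjusted p = 0.0161), and 2 lower, Nagpa, which uncovers that tag (-0.40 ± 0.11, adjusted p = 0.0262), and the adaptor gene Gga2 (-0.37 ± 0.10, adjusted p = 0.021). Ap1b1, Ap1g1 and Gnptab were lower and Sort1 higher in olaparib than in MNA. Without MNA replicate 2 the same list had 2 higher and 3 lower in olaparib, where 22.5% and 21.2% of all tested genes were. In MNA it had 2 higher and 5 lower, where 27.2% and 26.9% were. Psap, the prosaposin gene, was then higher in both (1.15-fold in olaparib, 1.17-fold in MNA), and the receptor gene Igf2r lower in both (-0.32 and -0.46). Grn and Gga1 were then lower in MNA (-0.37 and -0.18), and Ap1m1 and Nagpa were lower in olaparib (-0.18 and -0.29). Lgmn, the protease that cuts several cathepsins to their mature chains, was not called and read 315 to 539 CPM over the 12 libraries.

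The partners of cathepsin A rose in part. Glb1 rose 1.69-fold and Neu1 1.19-fold in olaparib (adjusted p = 0.0011 and 0.0318), where Ctsa itself was not called with all libraries. Galns, the sulfatase found with them, rose 1.38-fold in MNA (adjusted p = 0.0168). All 3 were called higher in MNA without MNA replicate 2, where 27.2% of all tested genes were. Of the 4 MiT transcription factor genes, which drive many lysosomal genes, Tfeb (1.29-fold), Tfe3 (1.16-fold) and Tfec (1.47-fold) rose in olaparib (adjusted p = 0.0381, 0.021 and 0.00764). Among all tested genes 14.3% were called higher in olaparib and 16.3% in MNA. Tfeb rose in MNA (1.28-fold, adjusted p = 0.0436), and without MNA replicate 2 Tfec was called higher in MNA as well (1.24-fold, adjusted p = 0.00953). Mitf was called in neither fit. The median log2 fold change of these 4 genes was 0.29 in olaparib and 0.15 in MNA.

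Of 10 granule protease genes whose products cathepsin C activates, 2 passed the filter. Gzmb, the gene of granzyme B, read 0.281 to 2.57 CPM in DMSO, 0.53 to 5.17 CPM in olaparib, 30.7 to 51.3 CPM in MNA replicates 1, 3 and 4 and 1 CPM in MNA replicate 2, and was called higher in MNA (log2 4.49 ± 1.03, adjusted p = 0.0165). Gzma rose too (log2 5.07 ± 1.01, adjusted p = 0.0142). Without MNA replicate 2 their log2 fold changes were 4.87 and 5.46. Both are markers of cytotoxic lymphocytes as well. In the same contrast Cd3e, Cd79a and Ms4a1 were called higher (log2 4.16, 1.43 and 1.60) and Klrb1c lower (-0.79), and the part of lymphocytes in the granzyme values was not tested. Of 6 cytosolic serpin genes, a further class of protease inhibitors, 3 were called higher in olaparib (Serpinb9b, Serpinb6b and Serpinb9), where 14.3% of all tested genes were. In MNA 2 were called higher and 3 lower (16.3% and 12.3% of all tested genes). Without MNA replicate 2 that was 2 higher and 4 lower (27.2% and 26.9%), when Serpinb1a was also called. The one with the most counts, Serpinb6a, read 303 to 345 CPM in DMSO and 136 to 143 CPM in MNA replicates 1, 3 and 4 (called lower, -0.88 ± 0.21, adjusted p = 0.0183, and -1.24 ± 0.07 without MNA replicate 2).

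For the members other than Ctsd, the 2 genes with the most similar pattern over the 12 libraries are given, found among 9746 genes whose mean count was 100 or more. Likeness was the root mean square difference of log2 CPM after each gene was centred on its own mean. Nearest to Ctsl were Slc27a1 (0.238) and Galnt15 (0.239), where Ctsl itself varied by 1.17 around its mean. Nearest to Ctsc were Ngly1 (0.0764) and Ogfrl1 (0.117), and nearest to Ctsh were Hacd4 (0.139) and Ddx58 (0.144). Ctss was nearest to Ankrd40 (0.0453) and Pold4, and Ctsb to Slc25a51 (0.0382) and Med28. For the genes that varied least, these were D430042O09Rik and Cops7a for Ctsa, Trnau1ap and Borcs8 for Ctsz, and Vps51 and Rab1b for Cst3. None of these nearest genes was another of the 9.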

How the data were processed

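For each of 12 libraries (3 groups of 4) the authors deposited raw counts per Ensembl gene, not normalized. Per the labels and methods they came from stranded mRNA libraries aligned to GRCm38.p5 with STAR 2.5.2b. Names, positions and exon lengths came from GENCODE vM21, which named 34490 of 35275 gene IDs. Groups and replicate numbers came from the sample titles. Whether libraries with different numbers came from separate mice was not tied to the labels, so p-values measure the spread between libraries.

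The counts went through filterByExpr (minimum count 10), TMM scaling, glmQLFit and glmQLFTest of edgeR 4.0.16 (R 4.3.3) in 1 fit of all libraries. Calls are at 0.05 after Benjamini-Hochberg adjustment over all tested genes. Standard errors are those implied by the F value. Both edgeR and DESeq2 1.42.0 were tested on simulated data. CPM per kilobase used the length of the principal transcript. Depths of 21146291 to 31446849 counts gave each of the 9 genes at least 932 counts in every library. Same-numbered olaparib and DMSO libraries deviated together over all tested genes (r = 0.227, 0.172, 0.225 and 0.408). These numbers were taken as pairs, from the data and not the labels, for the same-numbered differences and the fit with the replicate block. The main fit held no block, so its p-values do not use the pairs. The block changed none of the calls of the 9 genes in that contrast. For MNA and DMSO 1 of 4 correlations was -0.0094, and without MNA replicate 2 all 3 were 0.175 or more.

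Alternatives were another tool, other scalings and filters, 2 groups alone, a replicate block, and leaving out each library. Fits of 2 groups alone without MNA replicate 2, and lengths of merged exons, were chosen after seeing the data. The 9 genes and the gene lists were chosen with earlier results of these data known. Named genes are the 9, every called gene of the lists of cathepsins, cystatins, processing and sorting, cathepsin A partners and MiT factors, from other lists the gene with the highest mean count and any called gene where at most 3 were called, and the 2 genes nearest in pattern to each of the 9, which for Ctsd are not reported here. DNA stretches came from RefSeq promoter windows of GRCm38.p6.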

Additional observations from a re-analysis of the deposited data

Results flagged for a closer look

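In 2 of 27 sets, each 1 gene in 1 group of 4 libraries, 1 library lay further from the rest than Dixon's 95% limit for 4 values, which sets the gap to the nearest library against the group's range. Chance alone gives about 5% of such sets. Ctsl in MNA replicate 2 was 5882.5 CPM against 746 to 827 CPM in the other MNA libraries. Cst3 in DMSO replicate 3 was 1134.1 CPM against 1064 to 1071 CPM in the other DMSO libraries, and Cst3 was called in no contrast.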

How the results depend on the processing

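The number of the 9 genes called depended most on MNA replicate 2. For olaparib against DMSO, 2 higher and 0 lower became 4 and 3 without MNA replicate 2, with or without the replicate block. The lower count was 2 with DESeq2, 1 with RLE scaling, 1 with library totals alone and 3 with 2 groups alone, and the higher count was 1 with no filter. For MNA against DMSO, 2 higher and 0 lower became 1 lower with DESeq2 and 1 lower with the replicate block (Ctsl, -2.05, adjusted p = 0.0236), and 3 lower without MNA replicate 2, in that fit, with the block and with 2 groups alone. With 2 groups alone and all libraries edgeR called 0 of the 9 genes and 0 of 12379 genes, where 2 of the 9 (Ctsc and Ctsh) and 2622 genes higher and 2106 lower had an unadjusted p under 0.05, and DESeq2 with 3 groups called 2 of the 9 higher. For olaparib against MNA, 2 higher and 1 lower became 1 and 0 with 2 groups alone, 0 lower with no filter, and 2 lower without MNA replicate 2, with the replicate block or with 2 groups alone. Leaving out 1 library at a time gave, higher and lower, 1 to 4 and 0 to 3 for olaparib against DMSO, 0 to 3 and 0 to 3 for MNA against DMSO, and 1 to 3 and 0 to 2 for olaparib against MNA. Signs turned for values near 0. Cst3 in MNA ranged from -0.083 to 0.021 when 1 library was left out (0.021 without MNA replicate 1). Ctsb between the treatments ranged from -0.097 to 0.0041 (0.0041 without MNA replicate 2), and was 0.012 without that library in the blocked fit and 0.0034 with 2 groups alone. Ctsh between them ranged from -0.049 to 0.284 (-0.049 without MNA replicate 2), and was -0.013 and -0.0498 in the same fits. DESeq2 gave no adjusted p for Ctsl, and the cause of these changes was not tested. The block changed no other call of the 9 genes with all libraries. Same-numbered MNA and DMSO libraries had r = 0.242, 0.114, -0.0094 and 0.277, so with all libraries these numbers were not taken as pairs. Without MNA replicate 2, r was 0.175, 0.175 and 0.329, each library was closest to its own number, and the block changed no call of the 9 genes.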
